A study of Mus musculus with 8 samples.

Results

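Homologous recombination repair genes were followed in mouse prostate and prostate tumour RNA measured on expression beadchips. The genes were chosen by symbol, with earlier results of these data known. They were Rad54b, Rad54l, Rad51ap1, Brca1, Brca2, Blm, Xrcc2, Fancd2 and Chek1, and every probe annotated with any of these symbols was taken. Of the 9 genes, 8 had a probe, and no probe was paired with Xrcc2 in the annotation used here. The 8 genes held 14 of 25697 probes, and 12 of the 14 were brighter than the background limit on at least 1 of the 8 arrays. All 8 genes were tested, among 13044 features in all.

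All mice were of the C57Bl/6 strain, and each array held total RNA of 1 sample. At 30 weeks of age the study took normal prostate from wild-type mice (n = 2) and prostate tumours from TRAMP mice left untreated (n = 2). Tumours of TRAMP mice given cromolyn from 8 weeks of age (n = 3) and of TRAMP mice with the KitW-sh genotype (n = 1) were taken at 24 weeks. TRAMP mice carry simian virus T antigens under the probasin promoter, which is active in prostate epithelium, and large T antigen binds the p53 and retinoblastoma proteins. Cromolyn is a mast cell stabiliser, and KitW-sh is a regulatory allele of the receptor Kit that leaves mice without mast cells and also lowers Kit in some other cells. The design sets the 24-week tumours against the untreated 30-week tumours and against normal prostate, so that drug or genotype and the gap of 6 weeks in age cannot be told apart. No untreated 24-week tumour was analysed here. Below, the first step is the difference of untreated tumours from wild type, and the second is that of 24-week tumours from untreated ones. Steps, rises and falls name differences between groups, not changes over time.

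Homologous recombination repairs broken or stalled chromosomes by copying the sister chromatid, and it runs mainly in S and G2 phases. Brca1 helps prepare broken ends, Brca2 acts on the exposed strand, and Rad51ap1, Rad54l and Rad54b help that strand to invade its partner. The Blm helicase takes the joined molecules apart, Fancd2 is the switch of the Fanconi anaemia pathway for crosslinked DNA, and Chek1 is the kinase that delays the cell cycle below Atr. Transcription of many such genes is known to rise when cells enter S phase, under E2F factors that the retinoblastoma protein restrains.

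Promoter windows were available from RefSeq (GRCm38.p6), from 250 bases before to 50 after the start, for Rad54l, Rad51ap1, Brca1, Brca2, Blm and Chek1. They were searched on both strands for the E2F-type words GCGGGAA (held by 4.60% of all promoters), GCGCGAA (by 1.59%), GCGCCAA (by 2.45%) and GCGGCAA (by 1.81%). They were also searched for the CCAAT box and for TTTGAA, the core of an element of mitotic genes. An E2F-type word lay in 5 of the 6 windows (all but that of Rad54l), against 9.57% of 32851 promoters. CCAAT lay in 4 of the 6, against 37.4% of all, and TTTGAA in 0 of the 6, against 17.9%. No E2F-type word of a window shared bases with a CCAAT or TTTGAA match. The windows below are those of Rad51ap1 and Blm, which rose from normal prostate to 30-week tumours and were higher again in 24-week tumours, and of Brca2 and Chek1, whose second step did not pass the test. They are written from 5′ to 3′ along the gene's strand with the E2F-type word in capitals. The windows are at chr6:126939538-126939837 on the minus strand, chr7:80534949-80535248 on the minus strand, chr5:150522371-150522670 on the plus strand and chr9:36726609-36726908 on the minus strand, in the order printed.
Rad51ap1: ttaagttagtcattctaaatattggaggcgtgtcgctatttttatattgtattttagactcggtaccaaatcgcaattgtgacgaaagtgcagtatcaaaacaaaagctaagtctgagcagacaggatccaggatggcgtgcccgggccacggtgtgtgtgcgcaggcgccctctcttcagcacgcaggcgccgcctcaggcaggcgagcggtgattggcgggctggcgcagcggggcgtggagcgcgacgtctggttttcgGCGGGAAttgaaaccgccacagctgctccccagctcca
Blm: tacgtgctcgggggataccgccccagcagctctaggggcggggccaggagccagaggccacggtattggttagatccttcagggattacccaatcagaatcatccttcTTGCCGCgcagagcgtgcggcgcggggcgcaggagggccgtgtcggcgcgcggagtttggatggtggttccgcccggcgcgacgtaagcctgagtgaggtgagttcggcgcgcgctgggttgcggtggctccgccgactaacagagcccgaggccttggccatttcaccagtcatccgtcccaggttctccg
Brca2: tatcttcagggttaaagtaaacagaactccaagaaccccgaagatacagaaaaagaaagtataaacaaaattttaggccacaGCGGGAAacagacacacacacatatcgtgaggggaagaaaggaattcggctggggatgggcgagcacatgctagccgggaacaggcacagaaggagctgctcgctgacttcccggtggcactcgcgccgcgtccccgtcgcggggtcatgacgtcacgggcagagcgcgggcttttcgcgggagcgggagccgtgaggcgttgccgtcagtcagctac
Chek1: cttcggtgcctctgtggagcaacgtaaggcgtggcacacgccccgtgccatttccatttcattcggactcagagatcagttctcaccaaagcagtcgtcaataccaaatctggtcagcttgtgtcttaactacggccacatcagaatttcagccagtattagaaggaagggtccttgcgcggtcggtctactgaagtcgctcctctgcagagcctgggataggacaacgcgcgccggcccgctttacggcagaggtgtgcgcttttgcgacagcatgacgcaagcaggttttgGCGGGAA
In Blm the capitals read GCGGCAA on the opposite strand. Counted from the start site, the capitals begin at -142 in Blm, -168 in Brca2, 13 in Rad51ap1 and 44 in Chek1. A match describes the letters only. It was held by genes whose second step passed the test and by genes whose second step did not.

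Levels are given as the deposited intensity of the gene's brightest probe, and differences as log2 after background correction and normalization, with their SE. An intensity over 216.6 was counted as above background. Adjusted p-values are those of limma with Benjamini-Hochberg adjustment over all 13044 features, and a gene was called at an adjusted p under 0.05. The labels do not say that replicates were separate animals, so the p-values reflect no more than the spread among these arrays, which could be technical. Precision is limited by the small number of arrays, and the lone KitW-sh array takes its error from the other groups. Intensities of different probes are not compared with each other. In bulk tissue, fewer cells of a type and less RNA per cell cannot be told apart.

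Between 14511 and 14531 probes were above background on each array. The deposited values were already quantile normalized and 1 limit was used for all arrays, so near-equal counts were fixed in advance. Replicates correlated at 0.967 in wild type, 0.984 in untreated TRAMP and 0.930 to 0.966 with cromolyn, while untreated and cromolyn tumours correlated at 0.771 to 0.797. The groups also differed in cell type markers. From wild type to untreated tumours the summed intensity of 6 skeletal muscle markers went from 44317 to 61966 down to 13437 to 19359, where Tnnt3, Myh1 and Myh4 were not above background. That of 4 basal epithelium markers went from 18345 to 36373 down to 5971 to 8425, and that of 3 measured adipocyte markers from 4666 to 10395 down to 525 to 806. The summed intensity of 7 measured neuroendocrine markers was 1563 to 1565 in untreated 30-week tumours, where Chga, Chgb, Insm1, Scg2 and Scg3 were not above background. It was 47557 to 53669 with cromolyn and 55918 with KitW-sh, where each of the 7 was above background on at least 1 array. The sum of 5 luminal epithelium markers was 46297 to 49686 in untreated tumours, 929 to 2277 with cromolyn and 3115 with KitW-sh, where the prostate secretory gene Pbsn was not above background. The sum of 4 smooth muscle markers was 93876 to 110582, 3930 to 9317 and 14849 in the same order. Of 5 measured mast cell markers, Cpa3, Cma1, Mcpt4 and Tpsb2 were not above background in any 24-week tumour. The part of these markers in the results below was not tested.

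Every measured gene of the set was at its lowest in normal prostate, and in 7 of the 8 the untreated tumours lay above it beyond the test's threshold. Rad54b, Rad54l, Rad51ap1, Blm and Fancd2 then stood higher again in the 24-week tumours of either kind. Brca1 passed the test at that second step and not at the first, and it was above background in the 24-week tumours only. Brca2 and Chek1 did not pass the test between the tumour groups. Between the KitW-sh tumour and the cromolyn tumours none of the 8 genes passed it.

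**Figure D1:**
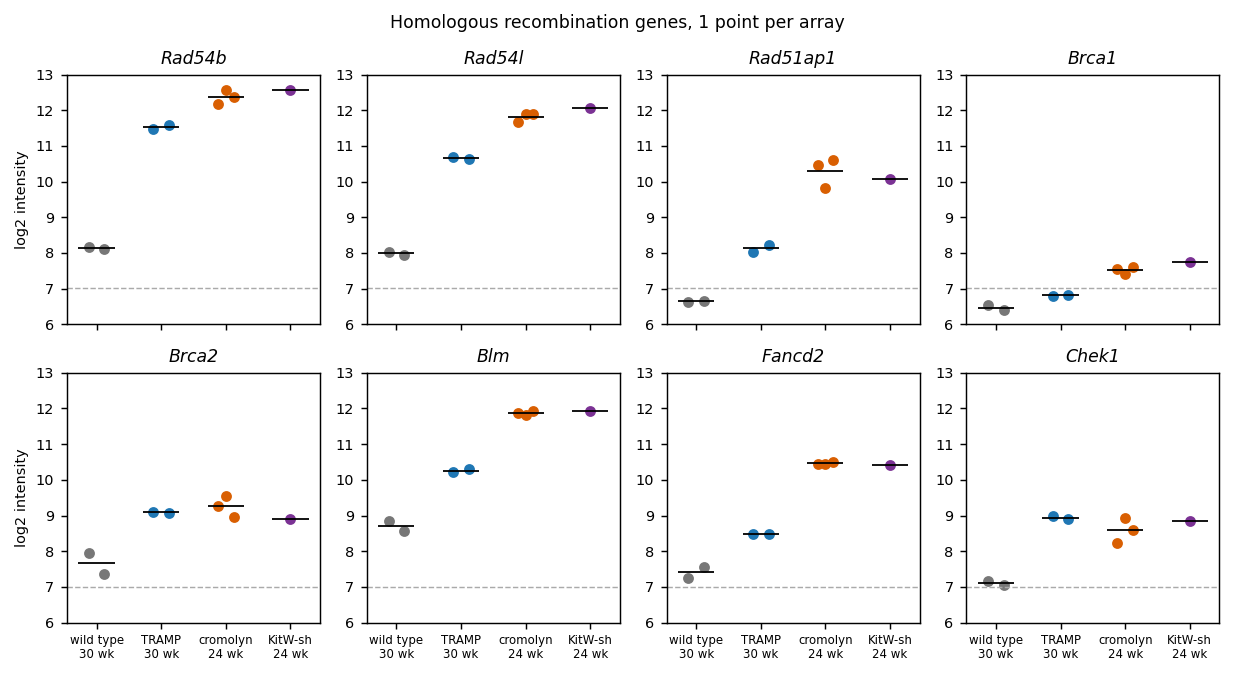
Log2 intensity of the tested probe of 8 genes, 1 point per array, in wild-type prostate, untreated 30-week TRAMP tumours, cromolyn tumours and the KitW-sh tumour, with the dashed line at the background limit of 7.01. Rad54b runs from a mean of 8.13 in wild type to 12.37 with cromolyn, while the Brca1 points stay within 1 unit of the line.

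The DNA translocases of strand invasion had the largest log2 differences of the 8 genes between untreated tumours and normal prostate. Rad54b, which remodels the joints made by strand invasion, had intensities of 374 and 363 in wild type and of 2916 and 3138 in untreated tumours. It read 4706, 6135 and 5427 with cromolyn and 6141 with KitW-sh. No tumour array came near the wild-type pair, and every 24-week tumour lay above both 30-week tumours. Rad54b was higher in untreated TRAMP than in wild type by 3.39 ± 0.19 (10.5-fold, limma adjusted p = 0.000834). It was higher again with cromolyn by 0.85 ± 0.17 (adjusted p = 0.00971) and with KitW-sh by 1.04 ± 0.23 (adjusted p = 0.0224). This second step passed the threshold only with both untreated arrays. Without untreated replicate 1 its adjusted p was 0.0868 for cromolyn and 0.117 for KitW-sh, and without replicate 2 it was 0.0624 and 0.0901. The first step was called with each array left out in turn.

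Rad54l, the mouse Rad54 translocase, read 351 and 334 in wild type, and 1730.3 and 1663 in untreated tumours. With cromolyn it read 3322, 3895 and 3884, and with KitW-sh 4386. The groups did not overlap. The first step was 2.66 ± 0.17 (6.33-fold, adjusted p = 0.00104). The second was 1.16 ± 0.16 with cromolyn (2.24-fold, adjusted p = 0.00194) and 1.42 ± 0.21 with KitW-sh (2.67-fold, adjusted p = 0.00575). Among the 8 genes Rad54l was the only one whose calls in all of these steps were made with each of 7 arrays left out in turn.

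Rad51ap1, which promotes joint molecules, was not above background in wild type, at 187 and 188. It read 350.1 and 388 in untreated tumours, 1510.3, 994 and 1647 with cromolyn, and 1174 with KitW-sh. Its cromolyn arrays had a log2 SD of 0.42, the largest of the 8 genes, and still lay wholly above the untreated pair. A fold against a group with no array above background is given as a lower bound, computed against the limit. Rad51ap1 was at least 2.18-fold higher in untreated TRAMP than in wild type, with a log2 difference of 1.49 ± 0.28 (adjusted p = 0.0287). That call was lost without either wild-type array (adjusted p = 0.106 and 0.120) and without either untreated array (0.135 and 0.203). It was also lost with no background correction (adjusted p = 0.0765). The second step was 2.17 ± 0.26 with cromolyn (4.50-fold, adjusted p = 0.00110) and 1.95 ± 0.35 with KitW-sh (3.87-fold, adjusted p = 0.0103). The KitW-sh step had an adjusted p of 0.0595 without untreated replicate 1.

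Brca1, the ubiquitin ligase subunit that acts early at broken ends, was dim throughout. It read 180.4 and 171 in wild type and 199 and 202 in untreated tumours, all of them below the background limit. It read 275, 259 and 283 with cromolyn and 302 with KitW-sh, all above the limit. The difference between untreated TRAMP and wild type was 0.36 ± 0.17 (95% interval -0.04 to 0.76, adjusted p = 0.283). Brca1 was at least 1.43-fold higher with cromolyn than in untreated tumours (log2 difference 0.71 ± 0.15, adjusted p = 0.0121) and at least 1.66-fold higher with KitW-sh (0.92 ± 0.21, adjusted p = 0.0221). Without untreated replicate 1 these adjusted p-values were 0.0980 and 0.114, and without replicate 2 they were 0.0861 and 0.103. Brca1 entered the test only because its 24-week arrays passed the filter on dim probes, and the counts of genes called in its comparisons are given below with and without it.

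Brca2, which acts after Brca1 in strand exchange, read 336 and 253 in wild type, and 639.6 and 628 in untreated tumours. It read 698, 838 and 589.8 with cromolyn, and 568 with KitW-sh. The untreated arrays lay inside the range of the cromolyn arrays, and the KitW-sh array lay below both groups. Brca2 was 2.70-fold higher in untreated TRAMP than in wild type (1.43 ± 0.27, adjusted p = 0.0300). The difference between cromolyn and untreated tumours was 0.17 ± 0.25 (95% interval -0.43 to 0.76, adjusted p = 0.649), and that of KitW-sh was -0.19 ± 0.34 (-0.99 to 0.62, adjusted p = 0.761). The rise over wild type was lost without wild-type replicate 2 (adjusted p = 0.127), untreated replicate 1 (0.171), untreated replicate 2 (0.184) or cromolyn replicate 1 (0.0512).

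Blm, the helicase mutated in human Bloom syndrome, read 546 and 465 in wild type and 1276 and 1354 in untreated tumours. It read 3836, 3678 and 4009 with cromolyn, and 3991 with KitW-sh. Groups were tight, and the 24-week tumours of both kinds shared 1 range above all others. Blm rose by 1.56 ± 0.18 from wild type to untreated TRAMP (2.95-fold, adjusted p = 0.00478), with an adjusted p of 0.0637 without untreated replicate 2. It was higher again by 1.61 ± 0.16 with cromolyn (3.06-fold, adjusted p = 0.000575) and by 1.67 ± 0.22 with KitW-sh (3.18-fold, adjusted p = 0.00350).

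Fancd2, which is ubiquitinated when the Fanconi anaemia core complex meets a crosslink, read 240.4 and 277 in wild type. It read 447 and 448 in untreated tumours, 1491, 1487 and 1525 with cromolyn, and 1452 with KitW-sh. The wild-type, untreated and 24-week arrays formed 3 separate ranges. The difference was 1.08 ± 0.18 from wild type to untreated TRAMP (2.12-fold, adjusted p = 0.0171), then 1.98 ± 0.16 with cromolyn (3.93-fold, adjusted p = 0.000269) and 1.92 ± 0.22 with KitW-sh (3.79-fold, adjusted p = 0.00214). The first step had an adjusted p of 0.0636 without wild-type replicate 1, of 0.131 without untreated replicate 1 and of 0.148 without untreated replicate 2.

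Chek1, the checkpoint kinase, read 229.9 and 219 in wild type, just above background. It read 597 and 563 in untreated tumours, 390.4, 576 and 477 with cromolyn, and 551 with KitW-sh. The untreated and cromolyn arrays overlapped, and the KitW-sh array lay within the cromolyn range. Chek1 was 3.60-fold higher in untreated TRAMP than in wild type (1.85 ± 0.25, adjusted p = 0.00884). That call was lost without wild-type replicate 2 (adjusted p = 0.0550), untreated replicate 1 (0.0791) or untreated replicate 2 (0.0773). The difference between cromolyn and untreated tumours was -0.35 ± 0.23 (95% interval -0.89 to 0.19, adjusted p = 0.276), and that of KitW-sh was -0.09 ± 0.30 (-0.81 to 0.64, adjusted p = 0.884).

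In untreated TRAMP against wild type, 7 of the 8 genes were called higher and 0 lower, where 6.62% of all features were called (3.73% higher and 2.89% lower). The genes were chosen with earlier results of these data known, so counts set beside the shares of all features are descriptions. Leaving out Brca1 and Rad51ap1, which were not above background in wild type, 6 of 6 were called. The median log2 difference of the 8 was 1.53, and that of all features was -0.01. The count fell without any 1 of the wild-type or untreated arrays, and so did calls over all features. Without untreated replicate 2 only Rad54b and Rad54l were left. With 1 array left out in turn the median of the 8 was 1.46 to 1.71. In cromolyn against untreated TRAMP, 6 of 8 were called higher and 0 lower, where 37.0% of features were called (18.9% higher and 18.1% lower), with medians of 1.01 and 0.05. Leaving out Brca1, which passed the filter only in 24-week tumours, 5 of 7 were called. In KitW-sh against untreated TRAMP, the same 6 genes were called higher, where 22.6% of features were called (11.4% higher and 11.2% lower), with medians of 1.23 and 0.02. Leaving out Brca1, 5 of 7 were called here too. Both counts between tumour groups fell without either untreated array, and so did calls over all features. With 1 array left out in turn the median of the 8 was 0.94 to 1.10 with cromolyn and 1.22 to 1.24 with KitW-sh. These comparisons share the untreated arrays, and the values are set side by side for that reason only.

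**Figure D2:**
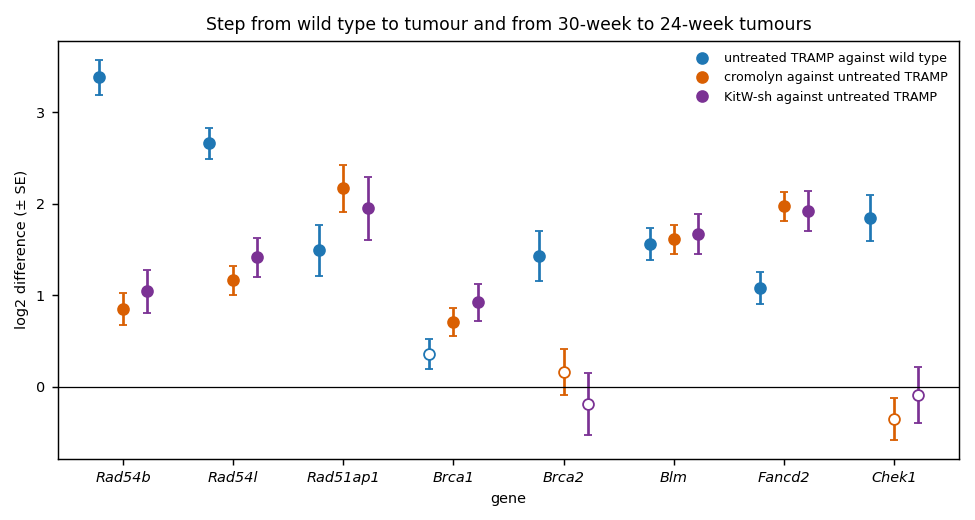
Log2 difference ± SE of 8 genes in 3 comparisons, first untreated TRAMP with wild type, then cromolyn and KitW-sh tumours each with untreated TRAMP, with filled points for genes called at an adjusted p under 0.05. Rad54b lies at 3.39 and 0.85 in the first and second comparison and Fancd2 at 1.08 and 1.98, while Brca2 and Chek1 are open in both comparisons between tumours.

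Against wild type, all 8 genes were called higher with cromolyn, where 45.8% of features were called (23.0% higher and 22.8% lower). Rad54b was 18.9-fold higher (4.24 ± 0.17, adjusted p = 3.42e-05), Rad54l 14.2-fold, Blm 9.02-fold and Fancd2 8.32-fold. Rad51ap1 was at least 9.79-fold and Brca1 at least 1.43-fold higher. Brca2 was 3.03-fold higher (adjusted p = 0.00261) and Chek1 2.82-fold (adjusted p = 0.00223). Both genes lay at the lower end of the set. With KitW-sh all 8 were also called higher than wild type, where 31.1% of features were called (15.9% higher and 15.3% lower). The lowest measured fold there was that of Brca2, at 2.37-fold (1.25 ± 0.34, adjusted p = 0.0323). Its adjusted p was 0.0994 without wild-type replicate 2, 0.0672 without either untreated array and 0.0729 in a fit of the 2 groups alone. Leaving out Rad51ap1 and Brca1, which were not above background in wild type, 6 of 6 were called in both comparisons.

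The log2 difference of untreated 30-week tumours from normal prostate was set against that of cromolyn tumours. It was 79.9% of the cromolyn difference for Rad54b, 69.6% for Rad54l and 89.6% for Brca2. For Blm it was 49.2%, and for Fancd2 35.4%. For Chek1 the mean of untreated tumours stood beyond that of cromolyn tumours, at 123%, with a wild-type level just above background. For Brca2 and Chek1 the untreated and cromolyn arrays overlapped and their difference did not pass the test, so their order was not resolved. No share is given for Rad51ap1 and Brca1, whose wild-type level was not above background. These shares are descriptions, and differences between genes were not tested.

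Between KitW-sh and cromolyn, 0 of the 8 genes were called by limma, where 0.0230% of features were called, and 0 of the 8 had an unadjusted p under 0.05. Differences ran from -0.35 for Brca2 to 0.26 for Chek1. The 95% interval was -0.33 to 0.72 for Rad54b, -0.43 to 0.55 for Blm and -0.54 to 0.43 for Fancd2, so that differences within these intervals could not be resolved with 1 KitW-sh array. For Rad51ap1 the interval was wider, from -0.99 to 0.56.

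Blm, Brca2 and Chek1 had several probes, which allowed their patterns to be compared within the gene. The next brightest Blm probe read 488 and 309 in wild type, 1166 and 1253 in untreated tumours, 3349, 3421 and 3382 with cromolyn, and 3811 with KitW-sh. It followed the tested probe, with steps of 1.91 ± 0.28 (adjusted p = 0.0113) and, with cromolyn, 1.56 ± 0.26 (adjusted p = 0.00391), adjusted over all probes that passed the filter. A dimmer Blm probe was above background only in 2 cromolyn tumours and the KitW-sh tumour, through which it passed the filter. It was at least 1.13-fold higher with cromolyn than in untreated tumours (adjusted p = 0.0240), while its difference with KitW-sh did not pass the test (adjusted p = 0.0845), and neither did that between untreated TRAMP and wild type (adjusted p = 0.748). The second Brca2 and the second Chek1 probe were not above background on either wild-type array, so that their folds over wild type are lower bounds. The Brca2 probe was at least 2.03-fold higher in untreated TRAMP than in wild type (adjusted p = 0.0142). Between cromolyn and untreated tumours it differed by -0.10 ± 0.19 (adjusted p = 0.726). The Chek1 probe was at least 2.98-fold higher in untreated TRAMP (adjusted p = 0.0173) and differed by -0.20 ± 0.34 with cromolyn (adjusted p = 0.682). No probe of the 3 genes was called in the direction opposite to the tested probe. A further Blm probe and a further Chek1 probe were above background on no array.

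**Figure D3:**
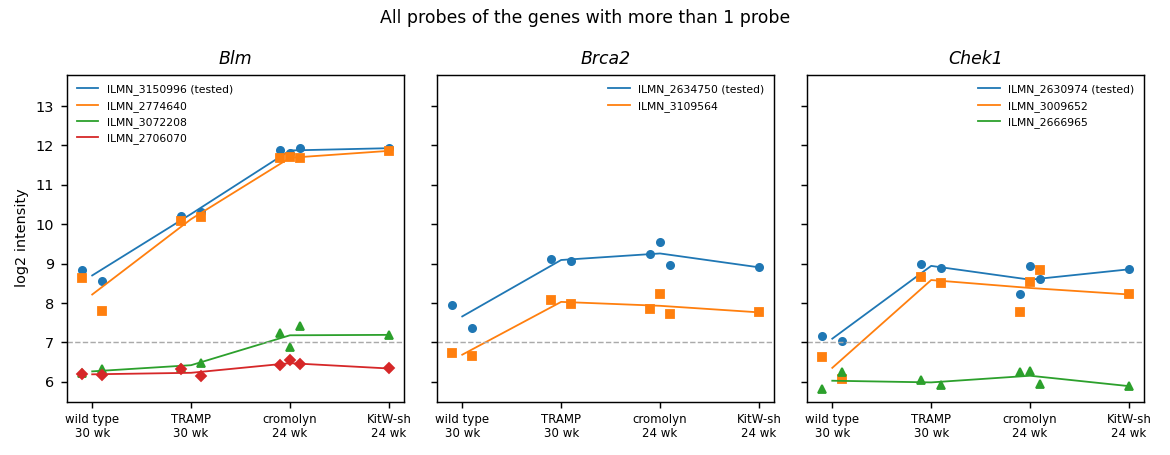
Log2 intensity of every probe of Blm, Brca2 and Chek1 on each array, with lines through the group means and a dashed line at the background limit of 7.01. The 2 bright Blm probes climb together from wild type to the 24-week tumours, while both measured probes of Brca2 and of Chek1 stay near their 30-week tumour level in the 24-week tumours.

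Other genes of the pathway were taken from lists of their roles, which were also chosen with earlier results of these data known. Calls over all features also fell without any 1 of the wild-type or untreated arrays, so list counts with an array left out are descriptions. Of 17 strand exchange genes and their mediators, 14 had a probe and 10 were tested. Palb2, the bridge between Brca1 and Brca2, was not above background. In untreated TRAMP against wild type 2 of the 10 were called higher, where 3.73% of all features were, and 0 lower (median 0.17). They were Fignl1, an ATPase of recombination, at 3.11 ± 0.22 (adjusted p = 0.00107), and Rad51c, which acts in strand exchange, at 2.11 ± 0.23 (adjusted p = 0.00436). With cromolyn against untreated TRAMP 4 of the 10 were higher, where 18.9% of all features were, and 0 lower (median 0.30), with 1 left without untreated replicate 1 and 2 without untreated replicate 2. Bard1, the partner of Brca1 in its ubiquitin ligase, rose by 1.44 ± 0.23 (adjusted p = 0.00388). Of 6 tested genes of end resection and strand binding, 2 were higher in untreated TRAMP (median 0.97), against 3.73% of all features. That count was 1 without wild-type replicate 2, untreated replicate 1 or untreated replicate 2. With cromolyn 3 were higher and 1 lower (median 0.29), against 18.9% and 18.1% of all features. The lower gene was Rad50, of the complex that senses broken ends, at -0.86 ± 0.26 (adjusted p = 0.0405), and it was called in only 1 of the 7 fits with an array left out, that without cromolyn replicate 2. The higher count was 1 without either untreated array or without cromolyn replicate 3. Rpa2, a subunit of the protein that coats exposed single strands, rose at both steps, by 1.76 ± 0.19 (adjusted p = 0.00354) and 1.64 ± 0.17 (adjusted p = 0.000653).

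Of 8 tested genes that dissolve or cut joined molecules, as Blm does, limma called 0 in untreated TRAMP against wild type (median 0.23). At an unadjusted p under 0.05, 3 were higher and 0 lower, with no share of all features at hand for that threshold. Without cromolyn replicate 2, 1 was called, where calls over all features rose from 864 to 1311. With cromolyn 1 was higher and 1 lower than in untreated tumours (median 0.33), where 37.0% of all features were called, so that the list held no larger share of calls than all features did. The helicase Recql4 rose by 1.75 ± 0.23 (adjusted p = 0.00159), while Recql5, another helicase of that family, fell by 1.20 ± 0.21 (adjusted p = 0.00516). The fall of Recql5 had an adjusted p of 0.0551 without untreated replicate 1. Of 9 tested Fanconi anaemia genes other than Fancd2, 7 were higher in untreated TRAMP (median 1.07) and 6 with cromolyn over untreated TRAMP (median 0.65), with 0 lower in either, where 3.73% and 18.9% of all features were higher. Fancg, Fanci, Ube2t and Polq were not above background in wild type. They passed the filter on dim probes only through tumour arrays, so the count over wild type favours higher calls. The first count depended on the arrays. It was 2 without wild-type replicate 1, 1 without wild-type replicate 2 or either untreated array, and 4 without cromolyn replicate 3. The second was 3 without either untreated array. With KitW-sh over untreated TRAMP 3 of the 9 were higher, where 11.4% of all features were, and 0 were higher without either untreated array. Fanci, the partner that is ubiquitinated with Fancd2, rose at both steps, at least 2.67-fold (1.84 ± 0.16, adjusted p = 0.00179) and then by 1.13 ± 0.15 (adjusted p = 0.00161). With cromolyn Ube2t, the enzyme that carries ubiquitin to Fancd2, rose by 1.52 ± 0.24 (adjusted p = 0.00375), and Usp1, which removes it, by 1.28 ± 0.18 (adjusted p = 0.00206).

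Of 16 tested checkpoint genes, 5 were higher in untreated TRAMP (median 0.63) and 6 with cromolyn over untreated TRAMP (median 0.49), with 0 lower in either, where 3.73% and 18.9% of all features were higher. Topbp1 and Cdc25c were not above background in wild type. The first count was 3 without wild-type replicate 2 or untreated replicate 1 and 2 without untreated replicate 2, and the second was 3 without untreated replicate 1. Clspn, the adaptor through which Atr activates Chek1, rose by 2.86 ± 0.21 (adjusted p = 0.00126) and then by 1.41 ± 0.20 (adjusted p = 0.00210), where Chek1 itself did not pass the test at the second step. Cdc25c, a phosphatase that Chek1 inhibits, rose by 2.35 ± 0.20 with cromolyn (adjusted p = 0.000304). Timeless, which travels with the replication fork, rose by 2.62 ± 0.23 in untreated TRAMP (adjusted p = 0.00181).

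Genes of proliferation moved alongside. Of 16 tested replication genes, 15 were higher in untreated TRAMP (median 2.29) and 14 with cromolyn over untreated TRAMP (median 1.03), against the same shares of all features. The second count was 7 without untreated replicate 1 and 9 without untreated replicate 2. Mcm2, a subunit of the replicative helicase, rose by 3.10 ± 0.20 at the first step (adjusted p = 0.00104), and Rrm2, of ribonucleotide reductase, by 3.49 ± 0.23 at the second (adjusted p = 0.000124). Of 10 tested mitosis genes, 9 and 10 were higher at the same steps (medians 2.58 and 1.79), among them Top2a at 2.61 ± 0.20 (adjusted p = 0.00133) and 1.75 ± 0.18 (adjusted p = 0.000698). Ccna2 of this list was not above background in wild type. The first mitosis count fell without untreated replicate 2 and the second without untreated replicate 1. With 1 array left out in turn the mitosis medians were 2.46 to 2.70 and 1.67 to 1.93. The summed intensity of the measured replication genes was 12456 to 13039 in wild type, 71261 to 73233 in untreated tumours, 119166 to 142512 with cromolyn and 134607 with KitW-sh. The part of proliferation in the levels of the 8 genes was not tested. Unless an array is named above, the calls of single genes in the lists were made with each of 7 arrays left out in turn.

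**Figure D4:**
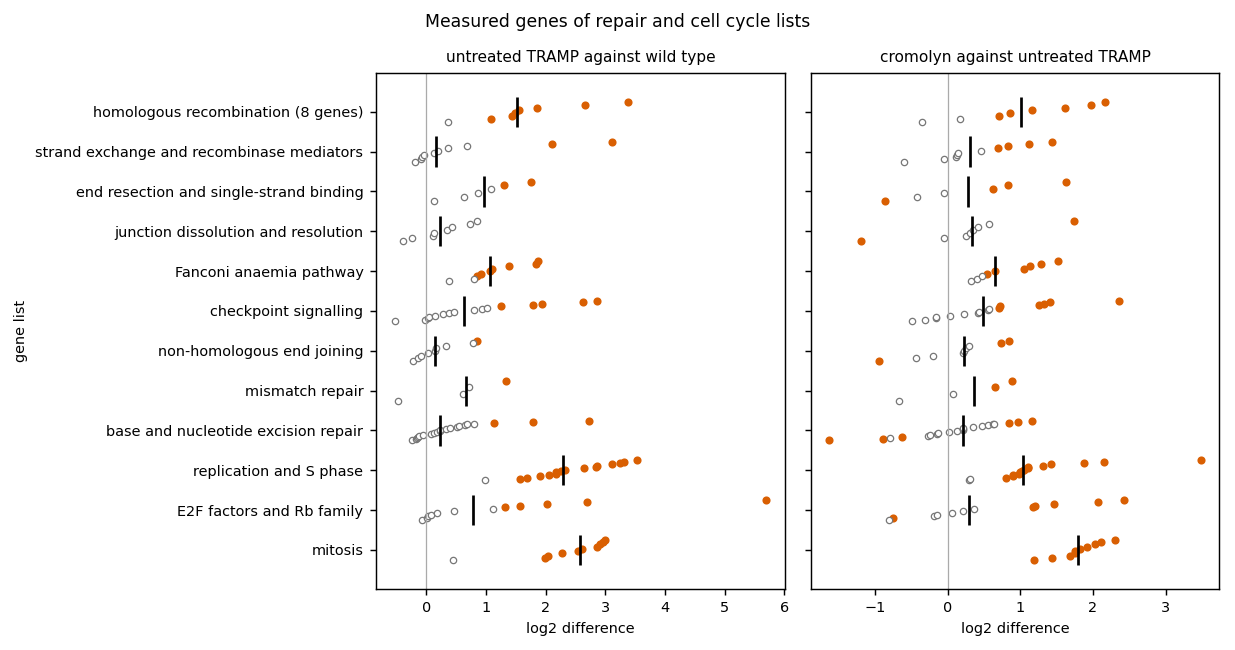
Log2 differences of the tested genes of each list, with untreated TRAMP over wild type on the left and cromolyn over untreated TRAMP on the right, with filled points for called genes and a black bar at the list's median. The replication and mitosis lists have the medians farthest to the right on the left panel (2.29 and 2.58), next to 1.53 for the 8 homologous recombination genes.

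The mean centred level of the 8 genes over the 8 arrays was used to find features of like pattern, as a description. Pearson's r with it was highest for Fanci (0.999), the kinesin Kif4 (0.998), the ubiquitin ligase Rnf168 (0.998), Cenpm (0.998), Bub1b (0.998), Spag5 (0.997), Top2a (0.997) and Etaa1 (0.997). The arrays share their groups, and 957 of 13044 features had an r over 0.9. Each of the 8 genes was set against the mean of the other 7, and r then ran from 0.803 for Chek1 and 0.873 for Brca2 to 0.995 for Rad54l.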

How the data were processed

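Illumina beadchips, with 1 array for each sample, gave the expression of total RNA from 8 prostate or prostate tumour samples. The values used were the intensity of each probe as deposited by the authors, on a linear scale. The software was BeadStudio, of unstated version, per the submitters' processing notes. Sorted within each array, the 8 deposited columns lay within 0.0489 of each other in log2, so the arrays had been quantile normalized, and the lowest intensity was 124, so background had not been subtracted. A second table of 16 columns, 8 of them signals, could not be tied to samples and was not used.

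Intensities were corrected with limma 3.58.1 (normexp, offset 50) in R 4.3.3, quantile normalized and log2 transformed. The background (mode 181, SD 15.2) was estimated from the dim side of the intensities, and its 0.99 quantile, 216.6, was the limit. It was passed by 18028 probes on at least 1 array. Of all probes 23978 had 1 gene symbol and 1719 none, per the platform annotation. The brightest probe of each gene was kept, which left 13044 features, 11959 of them named. One mean per group was fitted with lmFit and eBayes over all 8 arrays, with 4 residual degrees of freedom and 2.62 prior ones, for 6 comparisons, two-sided. The steps were tested on simulated data.

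The 9 genes and the gene lists were chosen with earlier results of these data known. Beside the 9 genes, up to 4 called genes with the smallest p in each direction were eligible to be named from each list, and those printed are the ones whose call was made with each array left out, with exceptions named. Features of like pattern were ranked by Pearson's r over 8 arrays. Alternatives covered the background correction, normalization, dim-probe filter, probe rule, groups in the fit, a replicate block and each array left out.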

Additional observations from a re-analysis of the deposited data

How the results depend on the processing

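Over 48 differences of single genes (8 genes in 6 comparisons) and 16 alternatives each, 731 of 768 values kept their direction and their side of the threshold and 36 lost the call. The other, Fancd2 in KitW-sh against cromolyn, was called in neither fit and went from -0.05 to 0.01 with the replicate block. No called value turned direction. The count of genes called in untreated TRAMP against wild type, 7, was 4 with the replicate block, which left out Brca2 (adjusted p = 0.0756), Rad51ap1 (0.0702) and Fancd2 (0.0719), and 2 to 7 with 1 array left out. The count for KitW-sh against untreated TRAMP, 6, was 3 to 6 with 1 array left out. The replicate numbers were treated as names only. Deviations of equally numbered arrays correlated at 0.00207 to 0.0744, but groups of 1 to 3 arrays are too small to show whether the numbers mark pairs. The block also ended the calls of Brca1 with cromolyn over untreated TRAMP (adjusted p = 0.0644), of Brca1 (0.0839) and Rad54b (0.0636) with KitW-sh over untreated TRAMP, and of Brca2 with KitW-sh over wild type (0.0781). Over all features, 864 calls in untreated TRAMP against wild type became 1467 with only the 2 groups, 418 with the block and 201 to 1311 with 1 array left out. The 4823 calls of cromolyn against untreated TRAMP became 2428 to 5357 with 1 array left out. The 2950 of KitW-sh against untreated TRAMP became 6201, 1865 and 1206 to 3856 in the order of the first comparison. KitW-sh against cromolyn had 3 calls, all higher, and between 0 and 31 otherwise, with 5 higher and 1 lower under cyclic loess. The causes were not tested. Signal over background limits Brca1 and, in normal prostate, Rad51ap1.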

Other observations

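Repair by other routes was measured in the same tumours. Of 9 tested genes of non-homologous end joining, 1 was called higher by limma in untreated TRAMP against wild type, where 3.73% of all features were, and 0 in every fit with an array left out but that without cromolyn replicate 2. Of 21 tested genes of base and nucleotide excision repair, 3 were higher and 0 lower in that comparison, with 1 higher without either untreated array. Lig1, the ligase of replication and excision repair, rose by 2.72 ± 0.23 (limma adjusted p = 0.00166). With cromolyn against untreated TRAMP 3 of the 21 were higher and 3 lower, with 1 and 1 left without either untreated array. Over all features 18.9% were higher and 18.1% lower, so the shares of the list called are no larger than those of all features. Xrcc1, the scaffold of single-strand break repair, rose by 1.16 ± 0.18 (adjusted p = 0.00332). Ddb2, the damage sensor of nucleotide excision repair, fell by 1.63 ± 0.23 with cromolyn (adjusted p = 0.00210). It was lower by the same test with KitW-sh, at -1.72 ± 0.30 (adjusted p = 0.0101), against the same untreated arrays, and that call was lost without either of them (adjusted p up to 0.0583). The calls of Lig1 and Xrcc1, and that of Ddb2 with cromolyn, were made with each of 7 arrays left out in turn. Of 12 tested genes of the E2F and retinoblastoma list, 5 were higher and 0 lower in untreated TRAMP than in wild type. With cromolyn over untreated TRAMP 5 were higher and 1 lower, against the same shares of all features. E2f1 rose by 2.69 ± 0.19 (adjusted p = 0.00106) and then by 1.47 ± 0.17 (adjusted p = 0.000984). Cdkn2a, which encodes inhibitors of the cell cycle, was not above background in wild type. It was at least 42.4-fold higher in untreated TRAMP (adjusted p = 0.000834).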
